A study of Oryctolagus cuniculus with 24 samples.

Results

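The BCL2 family holds the proteins that decide whether the mitochondrial outer membrane is opened in apoptosis. The genes described here are the 10 members BCL2, BCL2L1, BCL2L11, BCL2A1, MCL1, BAX, BAK1, BID, BAD and BBC3, chosen by name, as a family. Of these, 6 had a probe on the rabbit array under their symbol, by 14 probes, out of 28918 genes measured in all. BAK1, BID, BAD and BBC3 had none under the naming used and were not analysed here.

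Peripheral blood mononuclear cells (PBMCs, that is lymphocytes and monocytes of the blood) came from 4 rabbits, adult females of the New Zealand White breed, which carry the numbers 1, 2, 4 and 5. The cells of each rabbit were cultured in medium with serum and left mock-stimulated, stimulated with LPS at 1 µg/mL, or stimulated with PMA at 10 ng/mL together with ionomycin at 1 µg/mL (PMA-Ionomycin). They were collected 4 h (T4) or 24 h (T24) later, which gave 6 groups of 4 rabbits and 24 one-colour arrays, all from the same 4 animals. LPS is a bacterial outer membrane component sensed through TLR4, in blood chiefly by monocytes, and PMA with ionomycin mimics antigen receptor signalling through protein kinase C and calcium.

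BCL2, BCL2L1 (BCL-XL), MCL1 and BCL2A1 (BFL-1) are the survival branch of the family, which binds and holds back the other members. BAX is an effector that forms pores in the mitochondrial outer membrane, and BCL2L11 (BIM) is a BH3-only protein that neutralises the survival members and activates the effectors. In lymphocytes and monocytes BCL2A1 and BCL2L1 are classical targets of NF-kappaB, MCL1 is a short-lived protein that is renewed constantly, and BCL2L11 is needed for the removal of activated T cells.

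Every value rests on 60-base probes, so their sequences are given first, 5′ to 3′ as in the files, with 1 probe for each gene and 2 for MCL1, whose probes fall in 2 adjacent places. The files place the BCL2L1 probe at chr4:7512935-7512994, the BCL2L11 probe at chr2:96232659-96232718, MCL1 probe 1 at chr13:41504988-41505728 and MCL1 probe 2 at chr13:41504920-41504979 of oryCun2. MCL1 probe 1 thus covers more genome than its own length, and the other positions are as long as the probe. The files give no strand, and for BCL2, BCL2A1 and BAX no position, and exon or UTR annotation on this build was not used here. The BCL2 probe is spelled BCL-2 in the files and was matched with its hyphen left out.
BCL2: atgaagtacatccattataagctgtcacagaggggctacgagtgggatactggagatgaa
BCL2L1: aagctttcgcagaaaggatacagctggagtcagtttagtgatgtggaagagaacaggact
MCL1 probe 1: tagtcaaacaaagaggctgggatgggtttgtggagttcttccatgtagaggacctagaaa
MCL1 probe 2: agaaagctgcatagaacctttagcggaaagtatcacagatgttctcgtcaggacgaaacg
BCL2A1 probe 1: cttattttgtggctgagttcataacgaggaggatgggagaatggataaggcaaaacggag
BAX: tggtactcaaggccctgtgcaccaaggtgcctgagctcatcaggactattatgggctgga
BCL2L11: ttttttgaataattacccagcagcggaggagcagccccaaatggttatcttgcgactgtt

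The other probes are near copies of these. The 5 BCL2A1 probes share 55 to 59 bases with each other, and MCL1 probes 2 to 5 share 57 to 59, so they are repeated readings of a single stretch and not independent ones. A level below is the log2 median spot signal minus the median of all spots of the array, averaged over the probes of the gene. It is 0 at the middle of the array, and since probes differ in brightness, levels are compared only between samples of the same gene. Of the non-control spots of an array, 51.4 to 62.3% were well above the local background, and no array was left out. The LPS array of rabbit 4 at T4 had the lowest share, 51.4%, and the lowest median signal, 59.

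Under LPS stimulation, 1 of the 6 measured members was DE (adjusted p from limma under 0.05 over all genes) at T4 and 0 at T24 (2 of 6 at an unadjusted p under 0.05, BCL2A1 and MCL1, beside 3138 of the 28918 genes), while PMA-Ionomycin changed 5 of 6 at T4 and 5 of 6 at T24. Of all genes, LPS changed 1.02% at T4 (0.968% fell) and 1.22% at T24, and PMA-Ionomycin changed 22.8% and then 33.6%. The LPS counts depended on single rabbits and on the scaling: at T4 the 16 rises and 280 falls became 0 and 0 without rabbit 2, without rabbit 4 or with only the arrays compared, 2 and 10 on the processed signal, and 86 and 1144 with the rabbit as a block. At T24 the 186 rises and 168 falls became 51 and 59 without rabbit 2, 50 and 36 without rabbit 4, 22 and 25 with only the arrays compared, 240 and 375 without rabbit 5, and 418 and 337 with the rabbit as a block. At T4 the PMA-Ionomycin calls were 5 rises (13.4% of all genes rose), and at T24 they were 4 rises and 1 fall (22.1 and 11.5% of all genes). Under quantile normalization MCL1 was no longer called at T24 and BCL2A1 was called lower, so this split of the members depended on the scaling. The split of all genes after PMA-Ionomycin depended on the scaling too, since median centring gave 3889 rises and 2704 falls at T4 and 6400 and 3328 at T24, whereas the 4 other scalings gave 3301 to 3719 rises and 3261 to 3714 falls at T4, and 4686 to 5344 rises and 4395 to 5438 falls at T24. Under median centring the median log2 difference over the 6 members was 1.15 at T4 and 0.56 at T24, beside 0.05 and 0.03 over all genes. The T24 median lies between BCL2 and MCL1, and MCL1 was at -0.01 under quantile normalization, so this median depends on the scaling. The names were chosen with earlier results of these data known, so these counts describe the genes and are not a test of the family. In bulk PBMCs fewer cells of a type and less RNA per cell cannot be told apart.

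**Figure D1:**
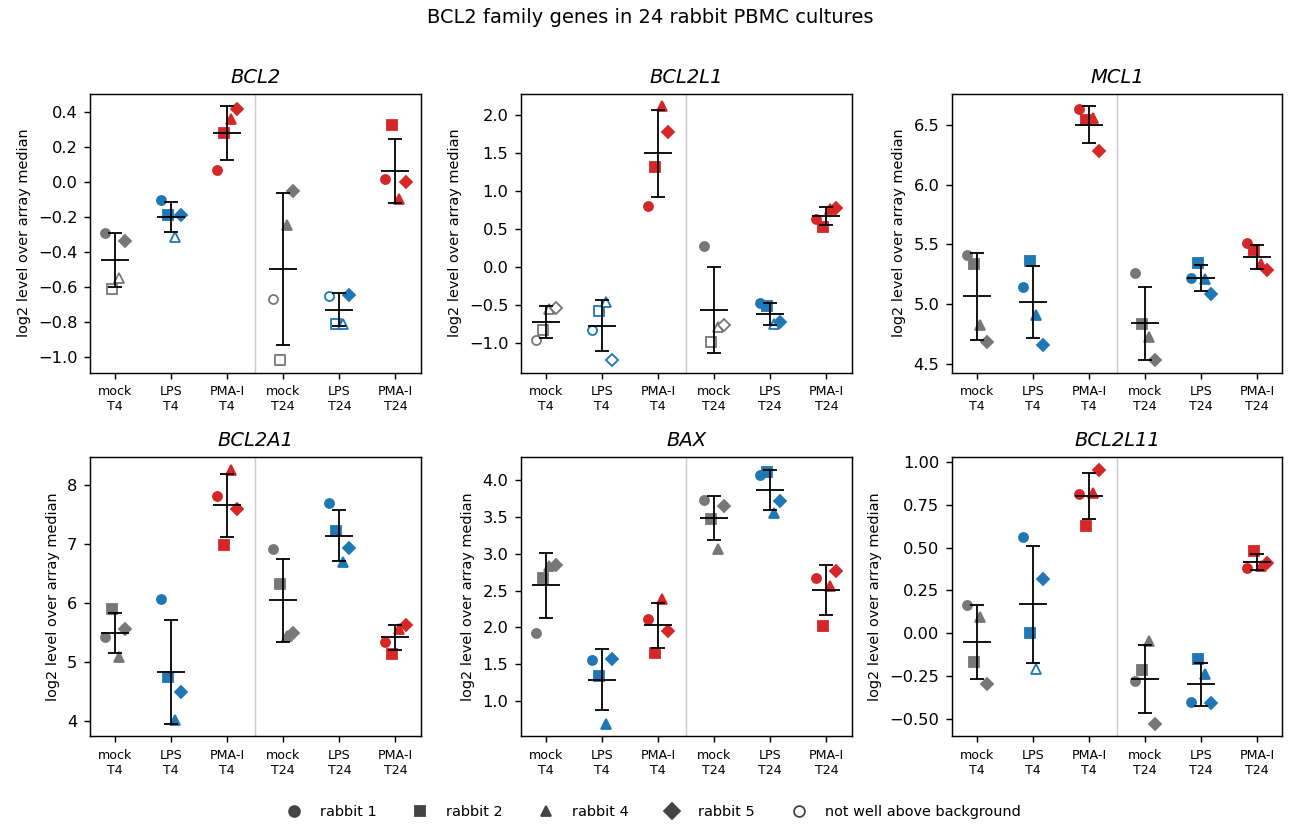
Log2 level over the array median (y axis) of the 6 measured BCL2 family genes in the 6 groups (x axis; PMA-I is PMA-Ionomycin), with 1 point per rabbit and open points for arrays not well above background; bars give the mean and SD of 4 rabbits. After PMA-Ionomycin at T4 the 4 points of BCL2, BCL2L1, MCL1, BCL2A1 and BCL2L11 lie above all 4 mock points of T4, and the 4 BAX points after LPS at T4 lie below them.

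Among the survival genes, BCL2L1 was close to background in mock-stimulated cells. In mock-stimulated cells at T4 its log2 level was -0.97, -0.82, -0.55 and -0.54 in rabbits 1, 2, 4 and 5, and on 0 of 4 arrays was the spot well above background. After PMA-Ionomycin at T4 it was 0.80, 1.31, 2.12 and 1.77, well above background on 4 of 4 arrays. Every stimulated rabbit was above every mock rabbit, with rabbit 1 the lowest of the stimulated. Since the mock signal is only a bound, BCL2L1 was under median centring at least 4.60-fold higher after PMA-Ionomycin at T4, and the fitted log2 difference was 2.22 ± 0.25 (SE, n = 4 rabbits; adjusted p = 3.48e-07). That difference was called in 15 of 15 alternative settings and ran from 1.77 to 4.46, so the bound depends on the scaling.

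At T24 the BCL2L1 levels after PMA-Ionomycin were 0.64, 0.53, 0.77 and 0.78, against 0.28, -0.98, -0.79 and -0.76 in mock. The groups did not overlap, but the mock culture of rabbit 1 stood about 1 log2 unit above the other mock cultures and was the sole mock array well above background. The difference on the measured signals was 1.24 ± 0.25 (SE; adjusted p = 0.000291), with rabbit differences of 0.36, 1.51, 1.56 and 1.54. It was called in 15 of 15 alternative settings, but its size ran from 0.79 with normexp and quantile normalization to 2.36 on the processed signal. On the measured signals the interaction with time was -0.98 ± 0.35 on the log2 scale (adjusted p = 0.0468), below 0 in 4 of 4 rabbits. Because the mock signal was not well above background on 4 of 4 arrays at T4 and 3 of 4 at T24, this value does not size the difference between the rises. That interaction was not called when any single rabbit was left out (adjusted p = 0.0643, 0.11, 0.139 and 0.0899 without rabbits 1, 2, 4 and 5) or with only the arrays compared (0.0793), and within the 3 slides it ran from -2.28 to 0.13.

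After LPS, BCL2L1 was well above background on 0 of 4 arrays at T4 and 3 of 4 at T24. Its level was -0.83, -0.58, -0.46 and -1.22 at T4 and -0.47, -0.52, -0.74 and -0.73 at T24, with log2 differences from mock of -0.05 ± 0.25 at both times (adjusted p = 0.941 and 0.994). With 0 of 4 arrays above background in either T4 group, no fold is given. In order of level, PMA-Ionomycin at T4 and PMA-Ionomycin at T24 stood apart from each other and from the rest, and the 4 mock and LPS groups overlapped.

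MCL1 was bright in every culture and rose with PMA-Ionomycin. At T4 the levels were 6.64, 6.54, 6.56 and 6.28 after PMA-Ionomycin, 5.41, 5.33, 4.82 and 4.68 in mock, and 5.14, 5.36, 4.91 and 4.65 after LPS. The PMA-Ionomycin group of T4 was above every other culture of the study, and the LPS and mock groups covered the same range. The rise was 1.44 ± 0.17 on the log2 scale (2.71-fold; adjusted p = 8.78e-07), higher in 4 of 4 rabbits and between 1.16 and 1.87 within each slide. All 5 MCL1 probes were called, each with a log2 difference of 1.39 or more. LPS gave a difference of -0.05 ± 0.17 at T4 (adjusted p = 0.918).

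At T24 MCL1 lay at 5.51, 5.45, 5.34 and 5.28 after PMA-Ionomycin, 5.26, 4.83, 4.73 and 4.53 in mock, and 5.22, 5.35, 5.21 and 5.08 after LPS. The lowest PMA-Ionomycin culture was barely above the highest mock culture, and the LPS cultures overlapped with both. Median centring gave a difference of 0.56 ± 0.17 (adjusted p = 0.0129), but quantile normalization gave -0.01 and normexp followed by quantile normalization -0.02, so the direction at T24 depended on the scaling, and the processed signal gave 0.26 (adjusted p = 0.368). The interaction with time was -0.88 ± 0.24 (adjusted p = 0.00912), in 4 of 4 rabbits and under all 4 other scalings. Without rabbit 4 the interaction was -0.80 (adjusted p = 0.0979), and the T24 difference was 0.54 without rabbit 2 and 0.54 without rabbit 4 (adjusted p = 0.0616 and 0.0812). LPS at T24 gave 0.38 ± 0.17 (adjusted p = 0.411). In order of level, PMA-Ionomycin at T4 stood alone, and PMA-Ionomycin at T24, LPS at T24, mock at T4, LPS at T4 and mock at T24 followed, each overlapping with the next.

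BCL2A1 group means spanned 2.82 log2 units. Its levels at T4 were 5.42, 5.89, 5.08 and 5.56 in mock and 7.81, 6.97, 8.25 and 7.58 after PMA-Ionomycin. All PMA-Ionomycin cultures exceeded all mock cultures at T4, and the gap within a rabbit ran from 1.08 in rabbit 2 to 3.17 in rabbit 4. The difference was 2.16 ± 0.36 (SE; 4.48-fold; adjusted p = 7.37e-05), and 1.91 to 2.33 within slides.

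By T24 the picture for BCL2A1 was different, since mock levels were 6.91, 6.32, 5.44 and 5.50 and PMA-Ionomycin levels 5.34, 5.14, 5.56 and 5.62. The ranges overlapped, with rabbits 1 and 2 lower than their mock cultures and rabbits 4 and 5 slightly higher. The difference was -0.63 ± 0.36 and not called (adjusted p = 0.22), while 3 of the other scalings called it: quantile normalization at -1.20 (adjusted p = 0.011), normexp with quantile normalization at -1.20 (0.0133) and the processed signal at -0.94 (0.0413). From T4 to T24 the PMA-Ionomycin effect dropped by 2.79 ± 0.51 on the log2 scale (adjusted p = 0.000232), in 4 of 4 rabbits and by 2.17 to 4.10 within slides. All 5 probes called this interaction.

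After LPS, BCL2A1 was at 6.06, 4.75, 4.02 and 4.50 at T4 and at 7.69, 7.21, 6.69 and 6.93 at T24. At T4 rabbit 1 was above its mock culture and the other 3 below, and at T24 all 4 were above their own mock cultures although the groups overlapped. Neither difference was called, at -0.66 ± 0.36 for T4 (adjusted p = 0.444) and 1.09 ± 0.36 for T24 (adjusted p = 0.182). The LPS effect was 1.74 ± 0.51 higher at T24 than at T4 (adjusted p = 0.0757), higher in 4 of 4 rabbits. With the rabbit as a block in the same fit it was called (adjusted p = 0.0284), as it was without rabbit 1 (2.28, adjusted p = 0.0214). The order of group means was PMA-Ionomycin at T4, LPS at T24, mock at T24, mock at T4, PMA-Ionomycin at T24 and LPS at T4, and all neighbours overlapped.

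BCL2 itself was a dim gene, well above background on 2 of 4 mock arrays at either time and on 4 of 4 PMA-Ionomycin arrays. At T4 it was -0.29, -0.61, -0.55 and -0.34 in mock and 0.07, 0.28, 0.36 and 0.42 after PMA-Ionomycin, with no overlap. The rise of 0.73 ± 0.15 was called (1.65-fold; adjusted p = 0.000979). On the processed signal, from which the background is subtracted, it was 1.57, and the BCL2L1 rise at T4 was 4.46, so for these dim genes the size of the rise differed widely between the signals.

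For T24, BCL2 levels were -0.67, -1.02, -0.25 and -0.05 in mock and 0.02, 0.33, -0.10 and 0.00 after PMA-Ionomycin. Rabbits 1 and 2 were clearly higher than their mock cultures, and rabbits 4 and 5 by 0.15 and 0.05, so that the groups overlapped. The difference of 0.56 ± 0.15 was called (adjusted p = 0.0063), but not without rabbit 1 (0.51, adjusted p = 0.0609) or rabbit 2 (0.30, adjusted p = 0.18), or with only the arrays compared (adjusted p = 0.0611), and on the processed signal it was 1.17. After LPS the levels were -0.11, -0.19, -0.31 and -0.19 at T4 and -0.65, -0.81, -0.81 and -0.65 at T24. Compared with mock these were 0.25 ± 0.15 and -0.23 ± 0.15, neither called (adjusted p = 0.51 and 0.673). By group mean, both PMA-Ionomycin groups came first and overlapped, and below them LPS at T4, mock at T4, mock at T24 and LPS at T24 overlapped in turn.

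BAX, the effector, was the sole member called under LPS, and it fell. At T4 its levels were 1.92, 2.67, 2.83 and 2.85 in mock, 1.56, 1.34, 0.69 and 1.57 after LPS, and 2.12, 1.66, 2.38 and 1.95 after PMA-Ionomycin. Every LPS culture lay below every mock culture, with rabbit 1 showing the smallest gap, while PMA-Ionomycin and mock overlapped. The largest gap, -2.14, was in rabbit 4, whose LPS array at T4 had the fewest spots well above background of all arrays. With LPS at T4, BAX fell by 1.28 ± 0.23 on the log2 scale (a fold change of -2.42; adjusted p = 0.0209), and the within-slide differences were -1.68 to -1.11. The call was lost without rabbit 2 (-1.26, adjusted p = 0.199), rabbit 4 (-0.99, adjusted p = 0.345) or rabbit 5 (-1.28, adjusted p = 0.0588), when only the arrays compared entered the fit (adjusted p = 0.228), and on the processed signal (-1.34, adjusted p = 0.056).

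Without stimulation BAX rose in culture, to 3.73, 3.47, 3.07 and 3.65 in mock at T24. It was the sole member called between the mock groups, at 0.91 ± 0.23 above T4 (adjusted p = 0.00886), where 12.6% of all genes were called and 7.42% rose. Those 2147 rises and 1485 falls became 1513 and 822 without rabbit 1, 1385 and 895 without rabbit 2, and 1339 and 1042 without rabbit 4. The BAX increase was 1.81 in rabbit 1 and 0.23 in rabbit 4, and without rabbit 1 it was 0.61 and not called (adjusted p = 0.187). The LPS cultures at T24 were 4.07, 4.11, 3.56 and 3.72, each above its own mock culture, and the PMA-Ionomycin cultures 2.67, 2.02, 2.56 and 2.77. LPS and mock overlapped at T24 (0.39 ± 0.23, adjusted p = 0.612), and PMA-Ionomycin was below both with no overlap.

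With PMA-Ionomycin at T24, BAX fell by 0.97 ± 0.23 (a fold change of -1.96; adjusted p = 0.00169), in 4 of 4 rabbits and on each slide (-1.71 to -0.68). At T4 the difference was -0.54 ± 0.23 and missed the threshold (adjusted p = 0.105), although quantile normalization (adjusted p = 0.0353), normexp with quantile normalization (0.0344) and leaving out rabbit 1 (-0.79, adjusted p = 0.0371) called it. The LPS effect on BAX differed between the times by 1.66 ± 0.33 (adjusted p = 0.0134), the sole member of 6 called in that interaction, where 1.95% of all genes were called and 1.71% were higher. Those 494 higher and 69 lower genes became 121 and 55 on the processed signal, 2 and 5 without rabbit 2, 23 and 8 without rabbit 4, and 1479 and 191 with the rabbit as a block. The BAX interaction kept its sign in 4 of 4 rabbits and on each slide (1.19 to 2.22), and was not called without rabbit 2, 4 or 5 (1.56, 1.34 and 1.77; adjusted p = 0.181, 0.111 and 0.0526). For PMA-Ionomycin the interaction called 3 of 6 members, BCL2A1, BCL2L1 and MCL1, all with a term below 0, beside 22.5% of all genes called and 8.16% lower (2361 genes, and 1467 without rabbit 4). LPS at T24 and mock at T24 were the highest BAX groups and overlapped, mock at T4, PMA-Ionomycin at T24 and PMA-Ionomycin at T4 formed an overlapping middle, and LPS at T4 was below all others.

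BCL2L11, the BH3-only member, rose with PMA-Ionomycin at both times. Its levels were 0.17, -0.17, 0.09 and -0.30 in mock and 0.81, 0.63, 0.82 and 0.95 after PMA-Ionomycin at T4. At T24 they were -0.28, -0.21, -0.05 and -0.53 in mock and 0.38, 0.48, 0.39 and 0.41 after PMA-Ionomycin. All stimulated cultures exceeded all mock cultures at both times, and the 4 PMA-Ionomycin cultures of T24 had an SD of 0.05.

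The BCL2L11 rise was 0.86 ± 0.14 at T4 (1.81-fold; adjusted p = 8.38e-05) and 0.68 ± 0.14 at T24 (1.61-fold; adjusted p = 0.000539). Both calls held in all 15 alternative settings, with differences of 0.72 to 1.37 at T4 and 0.47 to 0.91 at T24, and the difference between the times was not called (-0.17 ± 0.20, adjusted p = 0.696). After LPS the levels were 0.56, 0.00, -0.21 and 0.32 at T4 and -0.40, -0.15, -0.24 and -0.41 at T24, overlapping with mock at either time. The LPS differences were 0.22 ± 0.14 and -0.03 ± 0.14 (adjusted p = 0.535 and 0.992). PMA-Ionomycin at T4 stood above all other groups, and from PMA-Ionomycin at T24 through LPS at T4, mock at T4, mock at T24 and LPS at T24 each group overlapped with the next.

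**Figure D2:**
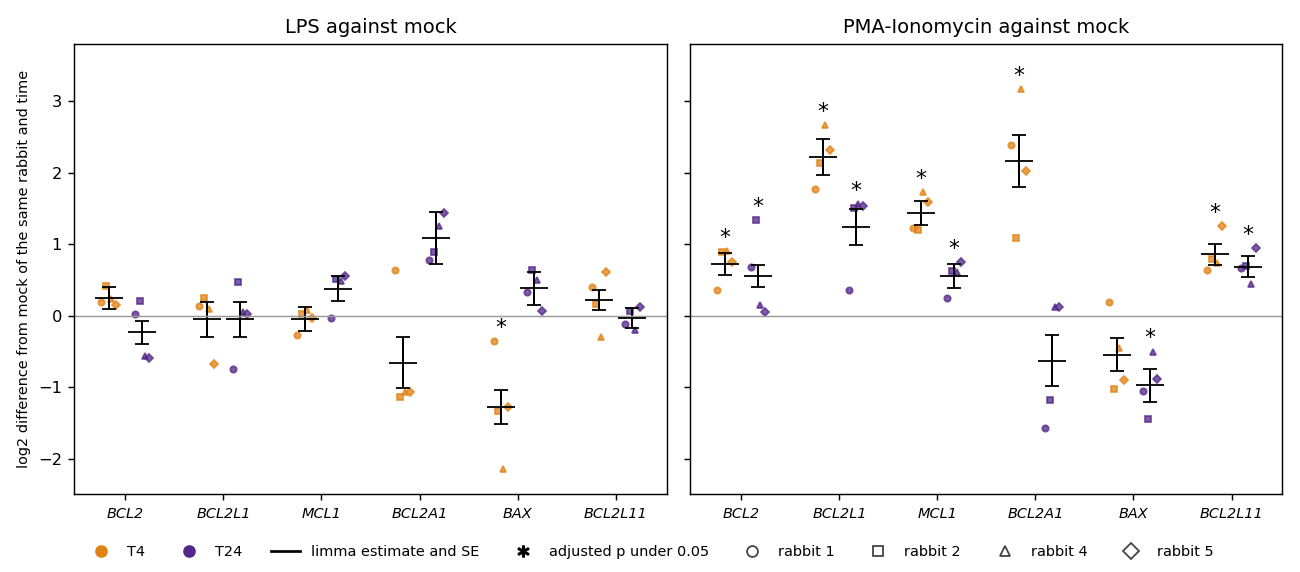
Log2 difference from the mock culture of the same rabbit and time (y axis) for the 6 BCL2 family genes (x axis) after LPS (left) and PMA-Ionomycin (right), at T4 and T24; points are rabbits, black bars the limma estimate and its SE, and asterisks mark adjusted p under 0.05. Under LPS only BAX at T4 carries an asterisk, and under PMA-Ionomycin the BCL2A1 points fall from between 1.08 and 3.17 at T4 to between -1.57 and 0.12 at T24.

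With PMA-Ionomycin at T24, BCL2, BCL2L1 and BCL2L11 were called higher and BAX lower under median centring and under all 4 other scalings, whereas MCL1 and BCL2A1 were not settled, as given above.

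**Figure D3:**
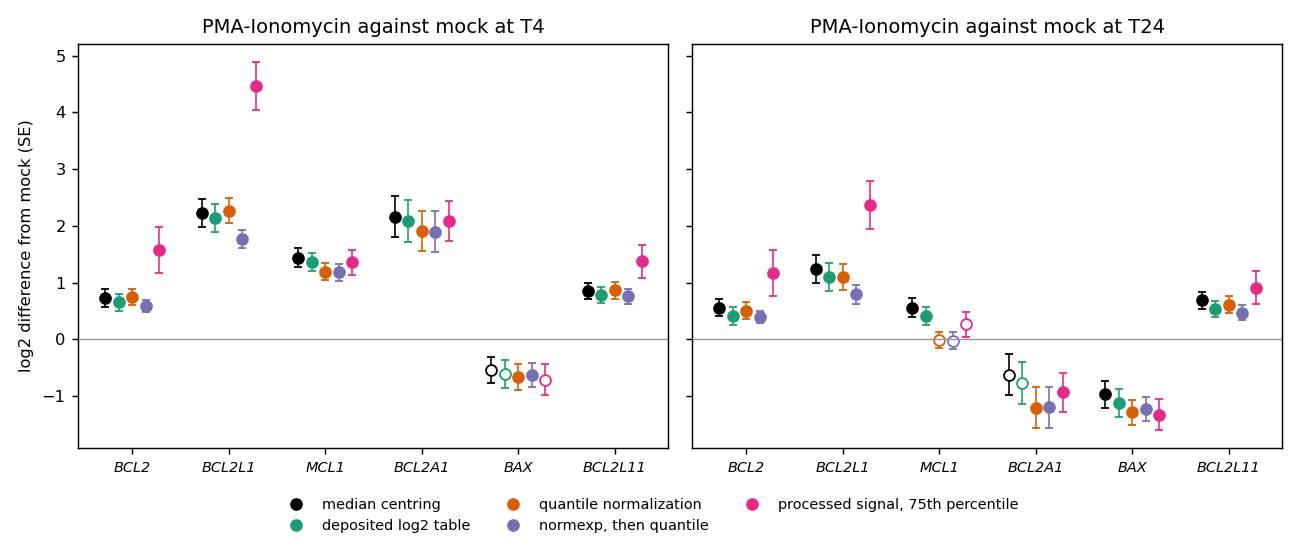
Log2 difference between PMA-Ionomycin and mock with its SE (y axis) for the 6 BCL2 family genes (x axis) at T4 (left) and T24 (right) under median centring and 4 other scalings; filled points have adjusted p under 0.05. At T24 MCL1 sits at 0.56 under median centring and at -0.01 under quantile normalization, and BCL2L1 at T4 reaches 4.46 on the background-subtracted processed signal against 2.22 under median centring.

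BAX and MCL1 probe 1 could be read a second time. The array carries 2 added spots with exactly the 60 bases of the BAX probe printed above and 2 with those of MCL1 probe 1, filed under an identifier without a symbol and so not averaged into the genes. Over 24 arrays the added BAX spots differed from the BAX probe by at most 0.11 on the log2 scale, and the added MCL1 spots by at most 0.13. They gave a BAX difference of -1.28 for LPS at T4 and an MCL1 difference of 1.45 for PMA-Ionomycin at T4. For BAX the distance from the member probe on an array was small beside the differences between rabbits. For MCL1 it was not so in every group. There the SD between rabbits of probe 1 ran from 0.10 after LPS at T24 to 0.39 in mock at T4.

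**Figure D4:**
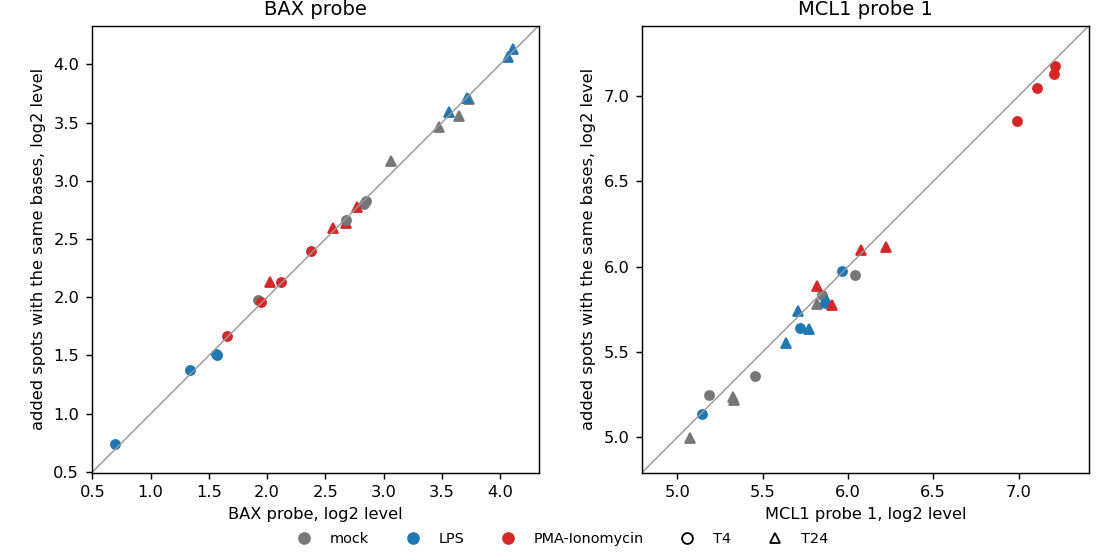
Log2 level of added spots with the same 60 bases (y axis) against the level of the BAX probe (left) and of MCL1 probe 1 (right) on the x axis, 1 point per array, with stimulation as colour, time as shape and the line of equal values in grey. The largest distance from the line is 0.11 for BAX and 0.13 for MCL1.

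Each of the 3 slides held arrays of all 6 groups, so the differences were also taken within slides. On a slide the groups compared often came from different rabbits. Differences between rabbits and between slides cannot be told apart in these values. With PMA-Ionomycin at T4, BCL2L1 ran from 1.62 to 2.53, BCL2 from 0.66 to 0.83 and BCL2L11 from 0.83 to 1.02. At T24 the values were farther apart, with 0.25 to 1.76 for BCL2L1, 0.16 to 1.00 for BCL2, 0.20 to 0.88 for MCL1 and 0.62 to 0.77 for BCL2L11. The 0.25 set PMA-Ionomycin of rabbit 2 against the high mock culture of rabbit 1. For BCL2A1 the difference ran from -1.77 to -0.12 with PMA-Ionomycin at T24 and from 0.16 to 2.22 with LPS at T24. All members called kept their sign on each slide, except BCL2L1 in the interaction. Among the members the slide as a block ended 1 call, the BCL2L1 interaction (-0.93, adjusted p = 0.0507).

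Outside the 6 members, genes of the wider apoptosis machinery were counted from lists written for this purpose. Of the 5 measured other BCL2 family members, 1 rose and 1 fell with PMA-Ionomycin at each time. Beside the counts of this and the following lists, PMA-Ionomycin changed 22.8% of all genes at T4 and 33.6% at T24. For LPS these shares were 1.02% and 1.22%. BCL2L15 fell by 1.14 ± 0.22 at T4 (adjusted p = 0.000355), and BMF, a BH3-only gene, fell by 1.04 ± 0.20 at T24 (adjusted p = 0.000173). BCL2L13 rose by 0.28 ± 0.09 at T4 and 0.34 ± 0.09 at T24 (adjusted p = 0.0287 and 0.00449; called in 9 and 13 of 15 alternative settings), with mock well above background on 2 of 4 arrays at T4 and 3 of 4 at T24. With LPS, 1 of the 5 was called, at T24, when BCL2L14 was at least 1.59-fold higher than mock, where it was on 0 of 4 arrays well above background (adjusted p = 0.00674; called in 12 of 15 alternative settings).

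Of the 3 measured inhibitor of apoptosis genes, 2 rose at T4 and at T24: BIRC3 by 1.55 ± 0.24 and 0.72 ± 0.24 (adjusted p = 3.16e-05 and 0.0227), and BIRC2 by 1.37 ± 0.17 and 0.61 ± 0.17 (adjusted p = 1.83e-06 and 0.00734). Both encode ubiquitin ligases that restrain caspase-8 activation below the TNF receptor. On the whole array 13.4% of genes rose at T4 and 22.1% at T24. The T24 calls held in 10 and 11 of 15 alternative settings. At T24 neither was called under quantile normalization (0.15 and 0.01), and BIRC2 turned to -0.01 under normexp with quantile normalization.

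In the death receptor pathway 2 of 6 genes rose and 2 fell with PMA-Ionomycin at T4, and 3 rose and 2 fell at T24. The shares of all genes called were 22.8% and 33.6%. CFLAR, which encodes the caspase-8 inhibitor c-FLIP, rose by 2.53 ± 0.25 at T4 (5.77-fold; adjusted p = 4.56e-08) and by 0.65 ± 0.25 at T24 (adjusted p = 0.0445), the latter called in 7 of 15 alternative settings. FAS, the death receptor, rose by 1.12 ± 0.31 at T4 and 1.99 ± 0.31 at T24 (adjusted p = 0.00968 and 1.63e-05), called in 14 and 15 of 15 alternative settings. TNFRSF1A, the TNF receptor, fell by 1.16 ± 0.23 and 1.56 ± 0.23 (adjusted p = 0.000449 and 6.4e-06).

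Also in that list, TNFSF10, the ligand TRAIL, was at least 2.27-fold lower at T4, when it was above background on 4 of 4 mock arrays and 0 of 4 PMA-Ionomycin arrays (adjusted p = 0.000224). RIPK1, a kinase of the TNF receptor complex, fell by 1.34 ± 0.17 at T24 (adjusted p = 5.76e-07). With LPS at T4, RIPK1 differed by -0.79 ± 0.17 (adjusted p = 0.0338; called in 9 of 15 alternative settings, and not without rabbit 2, 4 or 5), the 1 of 6 genes called there, and 0 of 6 were called for LPS at T24.

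Of 8 measured genes of the caspases and apoptosome, 0 rose and 2 fell with PMA-Ionomycin at T4, and 1 rose and 2 fell at T24. These counts are near the shares of all genes called, 22.8% at T4 and 33.6% at T24. The effector caspase CASP6 fell by 1.36 ± 0.17 at T4 and 0.52 ± 0.17 at T24 (adjusted p = 1.43e-06 and 0.018), the latter called in 11 of 15 alternative settings. CASP9, the caspase activated by the apoptosome, fell by 0.62 ± 0.14 at T4 and 0.56 ± 0.14 at T24 (adjusted p = 0.00141 and 0.00232). AIFM1, a mitochondrial flavoprotein released in cell death, rose by 1.82 ± 0.25 at T24 (adjusted p = 2.58e-06). With LPS at T4, CASP9 differed by -0.77 ± 0.14 (adjusted p = 0.0209; called in 10 of 15 alternative settings, and not without rabbit 2, 4 or 5), the 1 of 8 called there, and 0 of 8 were called at T24.

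Among the partners and regulators of the family, 4 of 11 measured genes rose and 2 fell with PMA-Ionomycin at T4, and 3 rose and 3 fell at T24. Over all genes, 22.8% were called and 13.4% rose at T4. At T24, 22.1% of all genes rose and 11.5% fell. VDAC2, the outer membrane channel that binds BAK1, rose by 1.18 ± 0.21 at T4 and 1.26 ± 0.21 at T24 (adjusted p = 0.000123 and 2.82e-05). PIM1, a kinase that phosphorylates BAD, rose by 1.04 ± 0.18 at T4 (adjusted p = 0.000151), and BNIP1, a SNARE protein that binds BCL2, rose by 0.63 ± 0.24 at T24 (adjusted p = 0.0479; called in 6 of 15 alternative settings). FOXO3, a transcription factor of BCL2L11 and BBC3, fell by 0.75 ± 0.17 at T4 (adjusted p = 0.0019), and at T24 it was at least 4.15-fold lower and not well above background on 4 of 4 arrays (adjusted p = 1.38e-09).

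BNIP3L, a mitophagy receptor, fell by 1.95 ± 0.31 at T24 (adjusted p = 2.29e-05), and BECN1, an autophagy protein bound by BCL2, fell by 0.45 ± 0.12 at T4 (adjusted p = 0.00869; called in 13 of 15 alternative settings). At T24 BECN1 differed by 0.58 ± 0.12 under median centring (adjusted p = 0.000586) and by -0.02 under quantile normalization (adjusted p = 0.942), so its direction there depended on the scaling. With LPS at T4, BAG3, a co-chaperone that binds BCL2, differed by -1.01 ± 0.19 (adjusted p = 0.0215; called in 10 of 15 alternative settings, and not without rabbit 2, 4 or 5), the 1 of 11 called, and 0 of 11 were called at T24.

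Of 6 measured genes of p53 and its targets, 2 rose with PMA-Ionomycin at T4 and 2 fell at T24, with none of the 6 called under LPS. The share of all genes that rose at T4 was 13.4%, and at T24 33.6% were called and 11.5% fell. CDKN1A, the cell cycle inhibitor p21, rose by 2.16 ± 0.38 at T4 (4.45-fold; adjusted p = 0.000151). SESN2, a stress-induced gene, rose by 0.74 ± 0.15 at T4 (adjusted p = 0.00055), with mock well above background on 2 of 4 arrays. TP53INP1 and GADD45A fell at T24 by 1.67 ± 0.13 and 1.36 ± 0.29 (adjusted p = 2.91e-10 and 0.000486).

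**Figure D5:**
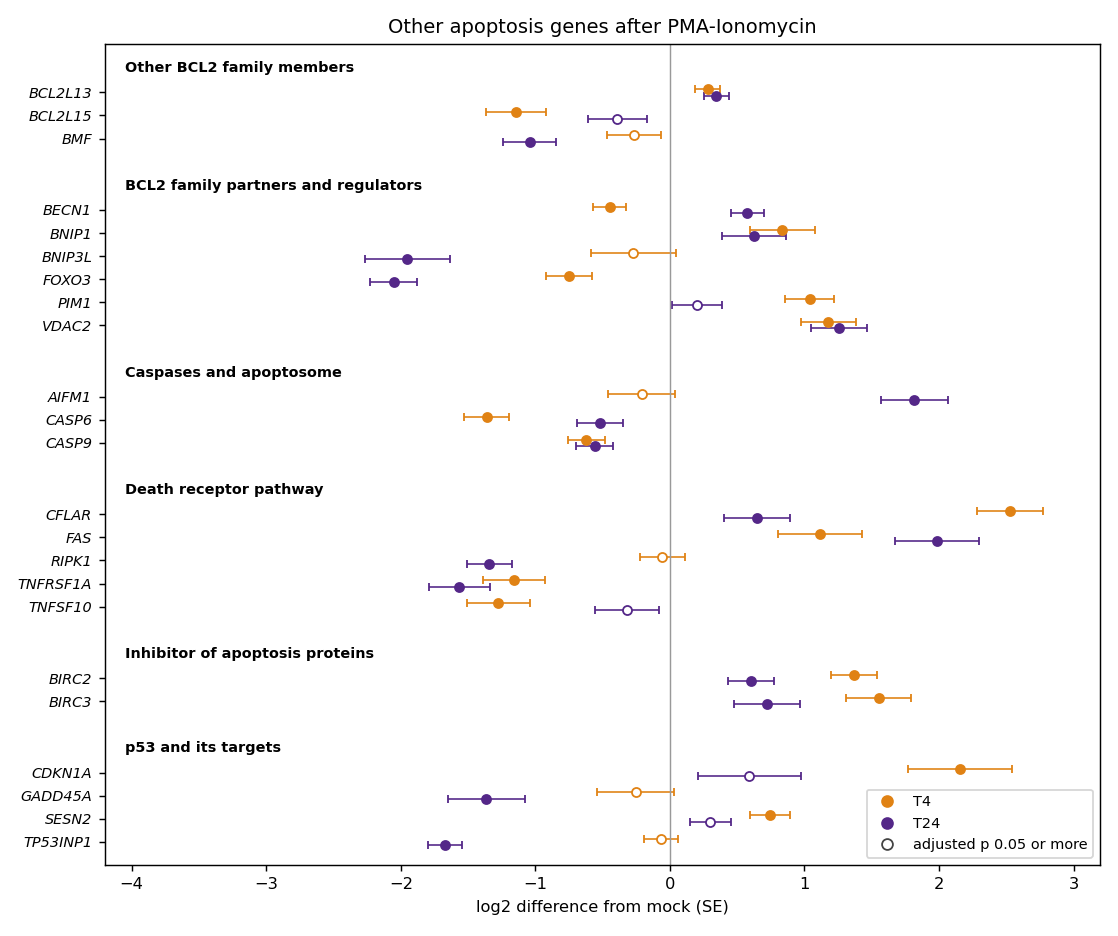
Log2 difference between PMA-Ionomycin and mock with its SE (x axis) for the apoptosis genes named after PMA-Ionomycin (y axis, grouped by list), at T4 and T24; open points have an adjusted p of 0.05 or more. CFLAR at T4 lies at 2.53 and CASP6 at T4 at -1.36, and the points of FOXO3 at T24 and TNFSF10 at T4 are measured signals against a group not well above background on 4 of 4 arrays, so their sizes are not exact.

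The genes whose levels over the 24 arrays were most like those of the 3 members of widest range on the median-centred signal were found by Pearson's r among 9076 genes with a symbol. For BCL2A1 they were PNP (r = 0.949), CAB39 (r = 0.926) and ATP2A2 (r = 0.920). For BAX they were LAMTOR1 (r = 0.980), PHF23 (r = 0.976) and SNX17 (r = 0.974), and for BCL2L1 they were MTURN (r = 0.971), POLD3 (r = 0.936) and BDNF (r = 0.931). The arrays share animals, slides and scaling, so these values are a description without a test.

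Other cell type markers moved in the same cultures. Beside the marker counts, PMA-Ionomycin changed 22.8% of all genes at T4 and 33.6% at T24, and LPS 1.02% and 1.22%. Between the mock groups 12.6% were called. Of the 6 measured monocyte markers, 6 fell with PMA-Ionomycin at T24 and 3 at T4, and 2 fell with LPS at T4, when BAX fell. Their summed log2 level was 7.07 to 8.23 in mock and 5.78 to 6.65 after LPS at T4. From mock at T4 to mock at T24, when BAX rose, 5 of the 6 were called higher and the summed level reached 8.44 to 9.76, against 5.84 to 6.83 after PMA-Ionomycin at T24. CD14 stayed well above background on 4 of 4 arrays of every group, MPEG1 was above it on 0 of 4 arrays after PMA-Ionomycin at T4, and VCAN on 0 of 4 after PMA-Ionomycin at T24. With LPS at T24, when BAX was not called, 1 of the 6 fell. The part of the monocyte markers in the BAX and BCL2A1 results was not tested.

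Of the 6 measured B cell markers, 5 fell with PMA-Ionomycin at either time and 0 were called with LPS, and their summed level was 8.30 to 9.31 in mock and 5.39 to 6.01 after PMA-Ionomycin at T4. At T24 the summed levels overlapped, at 7.59 to 9.78 in mock and 6.77 to 7.89 after PMA-Ionomycin. T cell markers, 8 measured of 11 listed, had a summed level of 3.52 to 4.98 over all cultures, with 1 higher after PMA-Ionomycin at T4, 1 higher and 2 lower at T24, 2 lower in mock culture and 0 called with LPS. The 2 measured platelet markers both fell in mock culture, from 5.31 to 6.57 at T4 to 1.25 to 2.27 at T24, and with PMA-Ionomycin both fell at T4 and 1 rose at T24. PRF1, the 1 measured NK cell marker, fell with PMA-Ionomycin at T4 and rose at T24. The 5 measured neutrophil markers had 3 rises in mock culture and 1 and 2 falls with PMA-Ionomycin at T4 and T24, and 2 falls with LPS at T24. MMP8 among the neutrophil markers and EPB42 among the erythrocyte markers were on 0 of 24 arrays well above background. The part of these markers in the results was not tested.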

How the data were processed

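Total RNA of PBMCs was hybridised on one-colour Agilent arrays. The authors deposited 1 scanner file per array, extracted with Agilent Feature Extraction 10.7.3.1 per the labels, whose spot intensity values are on a linear scale and not normalized between arrays. A series table, also deposited, holds log2 values that equal the log2 median signal minus the array mean (largest difference 5e-09; column medians -1.11 to -0.81). The file headers name a one-colour extraction protocol and the methods a two-colour one, and the files hold a single channel.

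From the median signal, log2 values were taken and centred per array on the median over its 61657 non-control spots, outlier spots left out, and the spots of a probe and then the probes of a gene averaged. Of 42089 probes, 11506 were named by accession, 8929 by gene number, 71 by gene name, 6 by gene name without its hyphen (BCL-2 among them) and 21577 kept their identifier, which gave 28918 genes, 9099 of them with a symbol. Groups came from the labels. A fit over all 24 arrays with 1 mean per group (limma 3.58.1 in R 4.3.3) gave the comparisons against mock at the same time, mock at T24 against T4, and the interactions with time, with Benjamini-Hochberg adjustment over all genes and a threshold of 0.05.

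The same rabbits gave all groups, so the numbers pair the samples. Deviations of arrays from their group means correlated with a median r of 0.228 for the same rabbit (60 pairs, lowest -0.413) and -0.0757 for other rabbits (180 pairs). An alternative took the rabbit as a block. The main fit held no rabbit term. Its p-values rest on the spread of arrays around their group means, pooled over the 6 groups and moderated over all genes. All arrays came from these 4 animals, so they are not independent. A spot well above background is as the scanner file calls it. Where a gene was below it on all 4 arrays of a group, a bound took, per array, the higher of its own signal and the lowest signal well above background. Other settings were the processed signal scaled to its percentile 75, quantile normalization alone, normexp with offset 50 followed by quantile normalization, the deposited table, dim probes left out, outlier spots kept, slide as a block, a trended and robust eBayes, only the arrays compared, each rabbit left out, and, added after seeing the data, spots of the same sequence joined.

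On simulated data, 77% of genes changed by a log2 of 1 and 97% of those changed by 2 were recovered for PMA-Ionomycin against mock at T4 (28801 genes, 200 changed). For the interactions a log2 of 1 was recovered in 57% (LPS) and 54% (PMA-Ionomycin) and a log2 of 2 in 93 and 91%. Members and lists were chosen with earlier results of these data known. Some genes of the caspase list are not reported here and are left out of its counts. Besides the members, genes were named if among the 2 largest rises and 2 largest falls of a list in a comparison against mock, called, in 1 direction in 4 of 4 rabbits and, in the brighter group, above background on every array. Similar genes are the 3 with the highest Pearson r for the 3 members of widest range. The number of arrays limits the precision.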

Additional observations from a re-analysis of the deposited data

Results flagged for a closer look

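The effect of a stimulus differed between T4 and T24, by the interaction term of the fit, for 4 results. For BAX under LPS the difference was 1.66 on the log2 scale, and under PMA-Ionomycin it was -2.79 for BCL2A1, -0.98 for BCL2L1 and -0.88 for MCL1. The BCL2L1 value is of measured signals, with mock cultures near background, and does not size the difference. The stability of each is given with its result above.

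A signal also appeared in spots that carry the bases of a member's probe but no gene symbol, and so are outside the averaged genes. The spots with the bases of the BAX probe gave -1.28 for LPS at T4, -0.94 for PMA-Ionomycin at T24, 0.91 for mock at T24 against T4, and 1.68 for the LPS interaction. The spots with the bases of MCL1 probe 1 gave 1.45 for PMA-Ionomycin at T4, 0.66 at T24 and -0.79 for the interaction. They are a second reading of the same RNA on the same array, not a further sample. None of the 36 combinations of member and group held a sample farther from the others than Dixon's 95% critical value allows.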

How the results depend on the processing

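Over the members and comparisons, 630 values were recomputed. Of 240 belonging to a called result, 216 were still called, 22 kept their direction and lost the call, and 2 reversed. Of the others, 8 became called, and 22 of the 382 not called in either setting changed sign. The 2 reversals were of MCL1 with PMA-Ionomycin at T24, at -0.0138 with quantile normalization and -0.0235 with normexp and quantile normalization. Outside the members, with PMA-Ionomycin at T24, BIRC2 turned to -0.00540 with normexp and quantile normalization, and BECN1 to -0.02 with quantile normalization and -0.03 with normexp and quantile normalization. The cause was not tested. For LPS at T4, 0 members were called with the processed signal and 0 with only the arrays compared, against 1. Leaving out a rabbit gave 0 to 1 there, 5 to 6 for PMA-Ionomycin at T4, 3 to 5 at T24 (3 without rabbit 2), 0 to 1 between the mock groups (0 without rabbit 1), 0 to 2 for the LPS interaction and 1 to 2 for the PMA-Ionomycin interaction (1 without rabbit 4). The replicate block (rabbit) raised the LPS interaction from 1 to 2 calls, with BCL2A1 added, and changed no other call of a member. The median of all genes moved with the scaling: for PMA-Ionomycin at T24 it was 0.03 with median centring, -0.11 with the deposited table and -0.26 with the processed signal, and for LPS at T4 0.06 and 0.22 with median centring and the processed signal. For dim genes (BCL2, BCL2L1), signal over background limits the size of a difference. BCL2L11 was low too, with mock means of -0.05 at T4 and -0.27 at T24. Its PMA-Ionomycin rise at T4 ran from 0.72 to 1.37 over the settings.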
